A study of Mus musculus with 14 samples.

Results

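The genes described here were 36 genes of glycolysis and of the cell's response to low oxygen, read in mouse bone marrow erythroid progenitors with and without erythropoietin (EPO), the cytokine that red cell precursors need to survive and divide. Every probe set that the array's annotation assigns to 1 of these genes alone was taken, which gave 77 of 45037 probe sets and 33 of 18193 genes. Gpi1, Eno1 and Gapdh had no probe set of their own in that annotation and were not analysed here. Where a gene had several probe sets (22 of the 33, with up to 5), the most variable of them over the 14 arrays (largest SD) stood for the gene, and the remaining probe sets are cited for genes that passed on that probe set but not on all of theirs.

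All cells came from the marrow of wild-type C57Bl/6 female mice 8 to 12 weeks old and were expanded in SP34ex medium. Stage E1 cells, which resemble the colony-forming erythroid progenitor (CFU-e), were taken at day 3 by removal of lineage-marked cells and positive selection for Kit and CD71. Stage E2 cells (proerythroblasts) were taken at day 3.5 from parallel cultures by removal of lineage-marked and of Kit-bearing cells and selection for CD71. After 5.5 h with no hematopoietic cytokine, cells of each stage received EPO at 4 U/mL for 90 min or none, which gave 4 EPO and 4 unchallenged arrays at stage E1 and 3 EPO and 3 unchallenged arrays at stage E2. The replicates are described as biological, and the sources used here do not give the number of animals pooled in each. Because Kit and CD71 (encoded by Tfrc) set the gates, their difference between the stages is no finding.

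Glycolysis splits 1 glucose into a pair of pyruvate molecules and yields ATP without oxygen. Glucose enters through transporters of the Slc2a family, is trapped by a hexokinase, and is committed by phosphofructokinase, whose activator fructose 2,6-bisphosphate is set by the Pfkfb enzymes. Lactate dehydrogenase turns pyruvate into lactate, which leaves through Slc16a transporters, while Pdk1 keeps pyruvate out of mitochondria by inhibiting pyruvate dehydrogenase. Many of these genes are targets of hypoxia-inducible factor (HIF), whose alpha subunit is hydroxylated by Egln enzymes and then destroyed while oxygen is present. In red cells a glycolytic side branch, catalysed by Bpgm, makes the 2,3-bisphosphoglycerate that lowers the oxygen affinity of hemoglobin. EPO is itself a classical HIF target, made in the kidney.

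HIF binds the core letters ACGTG or GCGTG. Each was searched on both strands (as ACGTG or CACGT, and as GCGTG or CACGC) in RefSeq promoter windows of 300 bases, from 250 bases before to 50 after the start of transcription (build GRCm38.p6), and 31 of the 33 measured genes had 45 such windows. ACGTG lay in 27 of these 45 windows (60.0%), against 19.6% of all 32851 windows, and GCGTG in 23 (51.1%), against 32.4% of all windows. The longer CACGTG, which contains ACGTG, lay in 6 of the 45 windows (13.3%) and in 7.2% of all. The letters TTCNNNGAA, the core bound by the EPO-activated factor Stat5, lay in 2 of the 45 windows (4.4%) and in 8.3% of all. A match is only a run of letters, and a window without one says nothing of a factor's action elsewhere at the gene.

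The windows below are those of the genes the results turn on: Hk2, Pfkp, Vegfa and Egln3, which passed an upward test with EPO, and Ldha and Bpgm, which differed between the stages in opposite directions. Capitals mark ACGTG or GCGTG on either strand, and each window runs 5′ to 3′ on the gene's own strand. The Hk2 window (chr6:82774405-82774704, minus strand) held 2 matches to ACGTG, the Egln3 window (chr12:54203825-54204124, minus strand) held 1, and the Pfkp window (chr13:6648722-6649021, minus strand) held 4 matches to GCGTG. The upstream Vegfa window (chr17:46032328-46032627, minus strand) held neither, whereas a downstream Vegfa window had 1 of each. The upstream Ldha window (chr7:46845554-46845853, plus strand) was the richest, with 5 matches to ACGTG and 2 to GCGTG. A downstream Ldha window held 2 matches to GCGTG and none to ACGTG. The Bpgm window (chr6:34476106-34476405, plus strand) held neither. Of Vegfa and Ldha only the upstream window is printed. A CACGTG counts as 2 matches to ACGTG, 1 on each strand, and the upstream Ldha window held 2 of them. None of the windows of Hk2, Pfkp, Vegfa and Egln3 held TTCNNNGAA.
Hk2: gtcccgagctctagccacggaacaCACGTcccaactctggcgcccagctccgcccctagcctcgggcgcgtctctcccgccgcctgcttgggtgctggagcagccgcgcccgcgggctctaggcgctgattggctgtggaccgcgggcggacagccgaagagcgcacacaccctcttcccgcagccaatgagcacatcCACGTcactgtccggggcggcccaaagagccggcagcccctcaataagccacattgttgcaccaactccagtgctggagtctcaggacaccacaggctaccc
Pfkp: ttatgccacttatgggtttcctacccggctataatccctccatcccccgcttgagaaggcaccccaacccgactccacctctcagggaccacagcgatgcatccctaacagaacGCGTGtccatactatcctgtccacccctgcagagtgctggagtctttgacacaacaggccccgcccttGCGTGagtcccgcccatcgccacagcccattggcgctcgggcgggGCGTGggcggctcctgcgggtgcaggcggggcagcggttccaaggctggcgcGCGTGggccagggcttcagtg
Vegfa: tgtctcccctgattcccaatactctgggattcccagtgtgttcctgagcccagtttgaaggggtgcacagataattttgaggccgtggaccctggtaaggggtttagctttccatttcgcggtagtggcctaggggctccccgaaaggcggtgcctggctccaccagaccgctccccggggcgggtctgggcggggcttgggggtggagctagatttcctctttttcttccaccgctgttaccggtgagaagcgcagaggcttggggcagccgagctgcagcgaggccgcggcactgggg
Egln3: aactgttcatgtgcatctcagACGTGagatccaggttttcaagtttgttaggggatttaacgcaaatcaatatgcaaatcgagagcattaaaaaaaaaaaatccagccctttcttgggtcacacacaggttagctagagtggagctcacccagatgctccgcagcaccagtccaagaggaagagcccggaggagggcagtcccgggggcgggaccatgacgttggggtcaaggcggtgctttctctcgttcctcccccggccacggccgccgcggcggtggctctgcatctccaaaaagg
Ldha: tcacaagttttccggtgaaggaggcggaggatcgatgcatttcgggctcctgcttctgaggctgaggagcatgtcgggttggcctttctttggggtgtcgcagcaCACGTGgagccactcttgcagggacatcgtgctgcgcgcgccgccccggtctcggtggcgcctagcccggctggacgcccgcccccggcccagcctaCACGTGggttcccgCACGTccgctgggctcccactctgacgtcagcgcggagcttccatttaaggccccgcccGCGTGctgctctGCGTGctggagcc
Bpgm: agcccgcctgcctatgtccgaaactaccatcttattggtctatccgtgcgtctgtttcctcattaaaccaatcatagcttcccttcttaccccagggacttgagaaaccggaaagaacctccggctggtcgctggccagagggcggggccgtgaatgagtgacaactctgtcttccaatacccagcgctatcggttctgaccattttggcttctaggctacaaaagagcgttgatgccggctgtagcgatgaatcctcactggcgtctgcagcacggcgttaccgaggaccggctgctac

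The deposited values are log2 expression values with 1 constant per probe set subtracted, the same for both stages. A value near 0 therefore means a level near that constant and not an absent transcript, the constant can lie at the top or the bottom of a gene's arrays, differences between arrays can be read, and levels of different genes cannot be compared. Over the whole series the array medians lay between -0.02 and 0.03. The 5′ minus 3′ difference of the Gapdh control probe sets, a sign of RNA integrity, ran between -0.35 and 0.07 on the E2 EPO arrays, between 0.11 and 0.16 on the unchallenged E2 arrays, between -0.14 and 0.17 on the E1 EPO arrays and between -0.07 and 0.10 on the unchallenged E1 arrays. With the constants removed it can only be compared between arrays, and at E2 its ranges with and without EPO did not overlap. The Actb control ran between -0.20 and 0.13 on the E2 EPO arrays and between 0.12 and 0.15 on the unchallenged E2 arrays. At E1 the ranges with and without EPO overlapped for either control. The spread between replicates was smaller at E2: the median SD of the 33 genes was 0.09 in E2 EPO arrays, 0.11 in unchallenged E2 arrays, 0.37 in E1 EPO arrays and 0.29 in unchallenged E1 arrays, and in each group it was above the median of all genes (0.05, 0.04, 0.12 and 0.13 in the same order). Groups were compared by limma's moderated two-sided test over all probe sets, and a gene passed at a Benjamini-Hochberg adjusted p under 0.05.

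The first question was which of these genes changed within 90 min of EPO. At stage E1, Hk2, the inducible hexokinase, and Pfkp, the platelet-type phosphofructokinase, were higher with EPO, and no member passed as lower. That was 2 of 33 members higher, where 1.13% of all genes passed as higher, and 0 of 33 lower, where 0.396% passed. At an unadjusted p under 0.05, 5 members were higher and 2 lower, but the share of all genes at that threshold was not counted. The median change of the members was 0.09 on the log2 scale (-0.01 over all genes), and 19 of the 33 estimates were above 0.

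Hk2 had log2 values of 4.23, 4.70, 4.27 and 3.96 on the 4 E1 EPO arrays, against 2.20, 1.69, 1.97 and 1.94 on the unchallenged E1 arrays. The groups were far apart, and the lowest EPO array stood above the highest unchallenged one. The mean was 4.29 ± 0.30 with EPO and 1.95 ± 0.21 without (SD, n = 4 each), a rise of 2.34 (SE 0.17) on the log2 scale, or 5.06-fold (limma, adjusted p = 0.00351). The gain lay between 2.02 and 3.00 in the 4 pairs of the same replicate number. With the pairs as a block the estimate was the same and the adjusted p was 0.0807 (between 5.09e-06 and 0.0807 over 9 alternative settings), so that no member passed in E1 in that fit.

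Pfkp had log2 values of 1.34, 1.73, 1.69 and 1.24 on the E1 EPO arrays, against 0.80, 0.45, 0.74 and 0.49 on the unchallenged E1 arrays. These groups did not overlap either, and the rise was 0.88 (SE 0.14), or 1.84-fold (limma, adjusted p = 0.0461). This call was at the edge of the threshold: the adjusted p was 0.181 with the pairs as a block (between 0.00276 and 0.216 over 9 alternative settings), and leaving out any 1 of the 8 arrays took it to between 0.0591 (without EPO replicate 4) and 0.143 (without EPO replicate 3). It was 0.0736 without EPO replicate 1, 0.0925 without EPO replicate 2, and 0.0883, 0.121, 0.112 and 0.124 without unchallenged replicates 1, 2, 3 and 4. The remaining 2 probe sets of Pfkp did not pass, with estimates of 0.26 and 0.46.

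Vegfa, the angiogenic growth factor and a widely used HIF target, had log2 values of 2.70, 1.44, 2.20 and 1.04 on the E1 EPO arrays, against -0.57, 0.04, -0.01 and -0.03 on the unchallenged E1 arrays. The groups did not overlap, yet the EPO arrays were widely spread, and the difference of 1.98 (SE 0.37) did not pass the test (limma, adjusted p = 0.0772). In the fit of all 14 arrays, with array weights, among the more variable probe sets, or with the mean of its probe sets, it passed (adjusted p between 0.00354 and 0.291 over 9 alternative settings). No member other than Hk2, Pfkp, Vegfa and Slc2a1 had all E1 EPO arrays above all unchallenged ones (4 of 33, where 4.12% of all genes did), and only Pfkfb2 had them all below (1 of 33, where 2.56% did).

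Slc2a1, a glucose transporter of many dividing cells, had log2 values of -1.43, -2.32, -2.10 and -2.39 with EPO and -2.42, -2.96, -2.53 and -2.97 without at E1, a difference of 0.66 (adjusted p = 0.452). Pfkfb2, a kinase and phosphatase of fructose 2,6-bisphosphate, had -2.31, -2.16, -2.16 and -2.10 with EPO and -2.003, -1.33, -1.31 and -1.49 without. Its difference of -0.65 gave an adjusted p of 0.162, and of 0.0165 when unchallenged replicate 1 was left out. Leaving out EPO replicate 1 likewise brought Pgk1, phosphoglycerate kinase, past the threshold at -0.56 (adjusted p = 0.0271, against 0.7 with all arrays). The largest disagreement between replicates was in Egln3, the HIF prolyl hydroxylase that is itself induced by HIF. It had 1.96 and 2.31 on EPO replicates 1 and 2, but -0.79 and -0.54 on EPO replicates 3 and 4, against -0.87, 0.08, -0.86 and -0.29 on the unchallenged arrays.

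**Figure D1:**
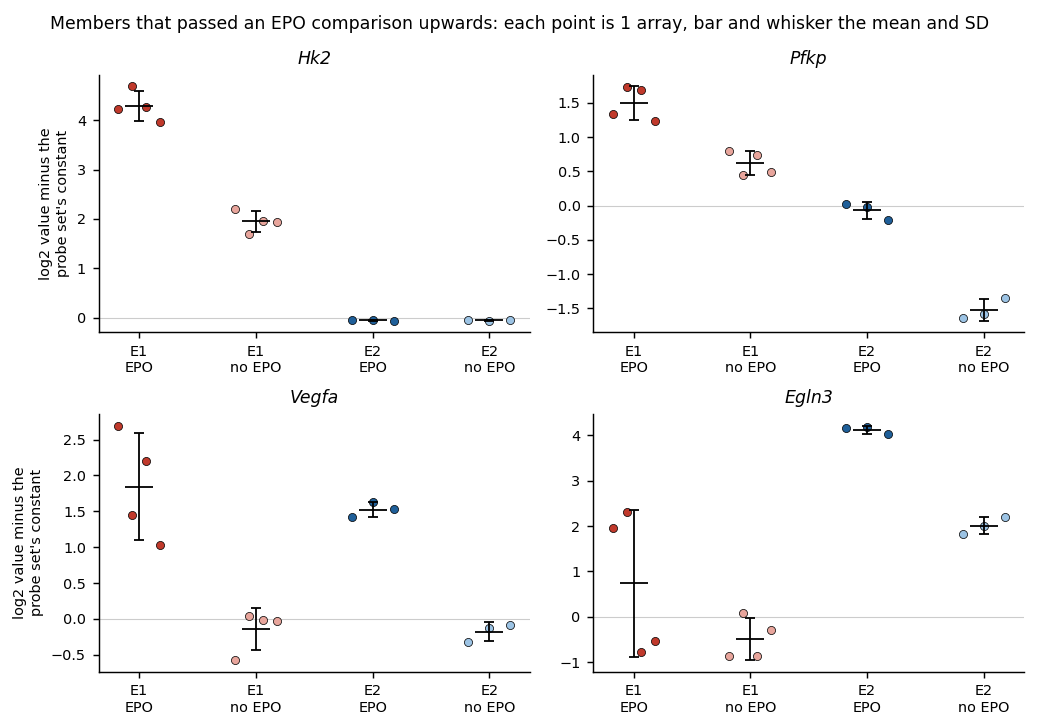
Log2 value of each array, with the probe set's constant subtracted (y axis), for Hk2, Pfkp, Vegfa and Egln3 in the 4 groups (x axis). Each point is 1 array, and the bar and whiskers are the mean and SD (n = 4 at E1, 3 at E2). Hk2 stands higher with EPO only among the E1 arrays, while its 6 E2 arrays all lie between -0.06 and -0.04. Egln3 splits within the E1 EPO group and separates cleanly at E2.

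At stage E2, Egln3, Vegfa and Pfkp were higher with EPO, and Slc16a1, a monocarboxylate transporter for lactate and pyruvate, was lower. That was 3 of 33 members higher, where 3.19% of all genes passed as higher, and 1 of 33 lower, where 2.42% passed. At an unadjusted p under 0.05 the counts were 5 higher and 6 lower, again without a counted share of all genes. The median change was -0.04 on the log2 scale (-0.01 over all genes), and 12 of 33 estimates were above 0. All E2 EPO arrays lay above all unchallenged ones in 5 members (10.3% of all genes) and below them in 8 (15.0% of all genes). Without unchallenged replicate 1, Pfkl and Pfkfb4 also passed as lower (-0.26 and -0.64), and without EPO replicate 2, Hif1a passed as higher (0.63, adjusted p = 0.0328).

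Egln3 had log2 values of 4.16, 4.19 and 4.02 on the 3 E2 EPO arrays, against 1.83, 1.99 and 2.21 on the unchallenged E2 arrays. The replicates of each group were within 0.37 of each other and the groups stood apart by a rise of 2.11 (SE 0.11), or 4.32-fold (limma, adjusted p = 0.00294). A second Egln3 probe set had 2.66, 2.21 and 2.69 with EPO and 0.46, -0.01 and -0.02 without, and it passed as well, at 2.38 (adjusted p = 0.00986). In the fit that drew its error from all 14 arrays the adjusted p of the representative probe set was 0.263, the highest of 9 alternative settings (the lowest was 0.000491). With the replicate block it was 0.0551, and 0.0528 for the second probe set, so neither passed in that fit.

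Vegfa had log2 values of 1.42, 1.62 and 1.53 on the E2 EPO arrays, against -0.32, -0.13 and -0.08 on the unchallenged E2 arrays. The rise of 1.70 (SE 0.09), or 3.25-fold, passed (limma, adjusted p = 0.00281), and it passed under each of the 9 alternative settings and with each of the 6 arrays left out. A second Vegfa probe set, with values between -0.10 and 0.04 on the 6 E2 arrays, did not pass. Pfkp had 0.02, -0.02 and -0.21 with EPO and -1.65, -1.58 and -1.35 without, a rise of 1.46 (SE 0.10), or 2.74-fold (adjusted p = 0.00621). This call was lost with the replicate block (adjusted p = 0.0802, the highest of 9 alternative settings, the lowest being 0.00043) and with the mean of its probe sets. Its other 2 probe sets again did not pass, at 0.12 and 0.05.

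Hk2 showed no such difference at E2. Its log2 values were -0.05, -0.05 and -0.06 with EPO and -0.05, -0.06 and -0.04 without, a difference of -0.00196 (SE 0.009, adjusted p = 0.936). The EPO effect in E2 minus that in E1 was -2.34 (SE 0.21), the only member to pass the test of the difference between the stages (limma on all 14 arrays, adjusted p = 0.000726), where 0.291% of all genes passed as lower and 0.198% as higher. With replicate numbers as a block the adjusted p was 0.0645, the highest of 7 alternative settings (the lowest was 3.87e-05). This fit takes 1 spread for both stages although replicates spread less at E2, and in simulations with unequal spread it made clearly more false calls than its threshold allows. Together with Eno2, Ldhb, Pfkfb3, P4ha2 and Ankrd37, Hk2 was 1 of 6 members whose 6 E2 arrays spanned under 0.1 on the log2 scale. How many of all genes had so small a span was not counted. GC-RMA, the method behind these values, sets weak probe sets to nearly the same low value, and whether the E2 arrays sat at that limit cannot be read because the constant was removed. For Pfkp, Vegfa and Egln3 the EPO effect in E2 minus that in E1 was 0.58, -0.28 and 0.89, and none passed (adjusted p = 0.411, 1 and 1). The second Egln3 probe set had a larger difference between the stages, 2.04, which did not pass either (limma, adjusted p = 0.0713).

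Slc16a1 moved little: 0.002, -0.007 and -0.002 with EPO and 0.21, 0.17 and 0.15 without at E2, a difference of -0.18 (SE 0.017, adjusted p = 0.0128). Leaving out EPO replicate 1, 2 or 3 or unchallenged replicate 2 took the adjusted p to 0.0537, 0.0512, 0.0513 and 0.0611, and a second Slc16a1 probe set had an estimate of 0.30. Slc2a3, a glucose transporter of high affinity, had 0.35, 0.16 and 0.54 with EPO and -0.43, -0.21 and -0.32 without. Its difference of 0.67 missed the threshold (adjusted p = 0.0548), and it passed under 5 of 9 alternative settings (quantile normalization, the trend and robust options, array weights, the more variable probe sets and the mean of its probe sets, with adjusted p between 0.0184 and 0.27 over the 9).

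Hif1a, the oxygen-regulated subunit of HIF, had log2 values of 0.70, 0.20 and 0.59 on the E2 EPO arrays and -0.07, 0.06 and 0.03 on the unchallenged E2 arrays (difference 0.49, adjusted p = 0.181). Another Hif1a probe set had 0.46, 0.27 and 0.59 with EPO and -0.16, -0.24 and -0.20 without, and passed at 0.64 (adjusted p = 0.0284). At E1 the representative probe set was scattered, with -0.64, -0.11, 1.31 and 0.98 with EPO and 0.60, -0.65, 0.04 and 0.17 without. Egln1, the main HIF prolyl hydroxylase in most mouse tissues, had estimates of 0.11 at E1 and 0.09 at E2 and did not pass.

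The enzymes of lower glycolysis (Tpi1, Pgk1, Pgam1, Eno2, Pkm, Ldha and Ldhb) gave no call with EPO. None of the 7 passed in either stage, with estimates between -0.38 and 0.48 at E1 and between -0.11 and 0.03 at E2. At E1 1.13% of all genes passed as higher and 0.396% as lower, and at E2 3.19% and 2.42%. Ldha, the muscle-type lactate dehydrogenase, had 1.20, 0.93, 1.61 and 1.67 with EPO and 0.77, 1.43, 1.25 and 1.40 without at E1, and -0.01, -0.02 and -0.13 with EPO and -0.08, 0.01 and 0.03 without at E2. Both pairs of groups overlapped.

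Among the regulators of flux, none of the 4 passed with EPO in either stage. Pfkfb3, the isoform with the strongest kinase activity, had 0.39, 0.36, 0.21 and -0.04 with EPO and 0.01, -0.03, 0.04 and 0.02 without at E1 (difference 0.22, adjusted p = 0.58), and all its E2 arrays lay between -0.08 and -0.06. Pfkfb4 had 0.18, 0.40, -0.03 and -0.03 with EPO and 0.01, 1.21, 0.46 and 0.97 without at E1. At E2 it had -0.17, 0.002 and -0.002 with EPO and 0.28, 0.62 and 0.56 without, a difference of -0.54 (adjusted p = 0.0748). Pdk1 had -0.09, 0.77, 1.12 and 1.17 with EPO and 0.56, 0.28, 1.08 and 1.03 without at E1, where replicates 3 and 4 stood above replicates 1 and 2 in both groups. At E2 it had -0.16, -0.32 and -0.10 with EPO and 0.09, 0.17 and 0.30 without, a difference of -0.38 (adjusted p = 0.0895).

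The side branches and the remaining hypoxia-inducible genes gave no further call. Bpgm, Pgm1 (a phosphoglucomutase that links glycolysis with glycogen) and Pgm2 had estimates between -0.54 and -0.05 at E1 and between -0.21 and 0.03 at E2. Ankrd37, Ndrg1, P4ha1 and P4ha2, the last 2 being subunits of collagen prolyl hydroxylase, had estimates between -0.49 and 0.05 at E1 and between -0.72 and -0.004 at E2. So of 5 genes listed as hypoxia-inducible outside glycolysis, Vegfa alone passed, at E2, where 3.19% of all genes passed as higher. Its E1 estimate of 1.98 was no smaller and the difference between the stages did not pass (above).

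**Figure D2:**
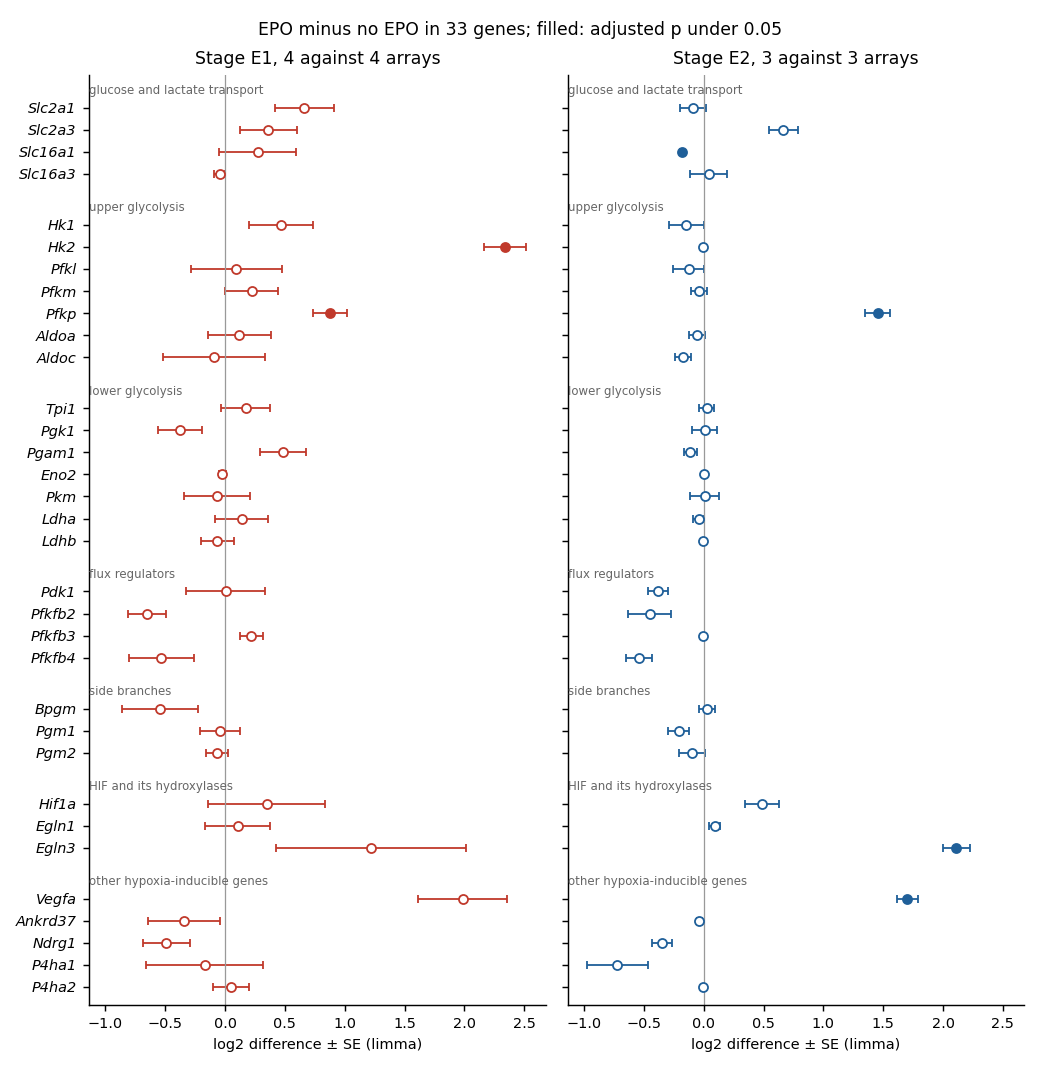
Log2 difference between EPO and unchallenged arrays (x axis, limma estimate with SE) for the 33 genes, ordered by role (y axis), at stage E1 on the left and E2 on the right. Filled points passed at an adjusted p under 0.05. Hk2 stands at 2.34 at E1 and at 0 at E2, while the genes of lower glycolysis lie close to 0 in both panels, with wider errors at E1.

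Genes around these pathways were counted from lists of the HIF pathway, further HIF targets, the pentose phosphate pathway, the citric acid cycle and other sugar transport. At E1, 1 of 9 HIF pathway partners and 1 of 16 measured further HIF targets were higher, and 0 of 7, 0 of 20 and 0 of 16 genes of the other 3 lists passed in either direction, where 1.13% of all genes passed as higher and 0.396% as lower. Siah2, a ubiquitin ligase that acts on Egln proteins, had 1.26, 1.21, 0.94 and 0.59 with EPO and -2.04, -1.03, -0.58 and -1.30 without at E1 (rise of 2.24, adjusted p = 0.0307, and 0.171 with the pairs as a block). At E2 Siah2 had 1.65, 1.60 and 1.59 with EPO and 0.32, -0.05 and -0.58 without (rise of 1.72, adjusted p = 0.0298). Hilpda, a hypoxia-inducible protein of lipid droplets, had 1.86, 1.73, 1.96 and 2.07 with EPO and -0.06, 0.25, 0.50 and 0.20 without at E1 (rise of 1.68, adjusted p = 0.00364, and 0.0576 with the pairs as a block). Like Hk2, Hilpda passed the test of the difference between the stages, at -1.35 (adjusted p = 0.0104, and 0.081 with the block).

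At E2 the calls in these lists were Siah2, Bhlhe40 and Pdp1 as higher and Slc2a8 and Txnip as lower. Bhlhe40, a transcriptional repressor, rose by 1.52 (adjusted p = 0.00653) and Pdp1, the phosphatase that activates pyruvate dehydrogenase, by 1.23 (adjusted p = 0.0137). Slc2a8, an intracellular hexose transporter, fell by 0.46 (adjusted p = 0.0102) and Txnip, a negative regulator of glucose uptake, fell by 1.72 (adjusted p = 0.0378). Of all these lists 2 of 16 sugar transport genes, 1 of 20 citric acid cycle genes, 1 of 16 further HIF targets and 1 of 9 HIF partners passed at E2, where 3.19% of all genes passed as higher and 2.42% as lower.

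The next question was how the same genes differed between stage E2 and stage E1, whether or not EPO was present. The stage comparisons share their arrays with the EPO comparisons above, and their error was taken from all 14 arrays. As in the interaction, that fit assumes equal spread, so all its calls are less firm than their adjusted p. With EPO, 6 of 33 members were higher at E2 (13.2% of all genes) and 14 were lower (15.0% of all genes). Without EPO, 7 were higher (13.4% of all genes) and 11 lower (13.8% of all genes). The 6 members higher with EPO were also higher without it, and the 11 lower without EPO were also lower with it. At an unadjusted p under 0.05 the counts were 6 higher and 15 lower with EPO and 8 higher and 11 lower without. The share of all genes at that threshold was not counted here either. The median size of the difference, without regard to sign, was 0.77 with EPO and 0.81 without, against 0.14 and 0.15 over all genes. No filter on low levels was set for all genes. In the neighbouring lists it lay between 0.28 (other sugar transport) and 0.80 (citric acid cycle) with EPO. Without EPO the same lists gave 0.09 and 0.78. All E2 arrays lay above all E1 arrays of the same treatment in 8 members with EPO (15.9% of all genes) and in 9 without (16.9%), and below them in 19 with EPO (46.6% of all genes) and in 16 without (37.8%). Leaving out EPO replicate 1 or replicate 2 of E2 brought the 14 lower calls under EPO down to 9.

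Markers of other cells moved with the stage. Of 10 neutrophil granule genes 8 were lower at E2 both with and without EPO, and the mean of the list lay between -0.07 and -0.03 on the E2 arrays, against 5.23 to 5.68 on the E1 arrays. Mpo (myeloperoxidase) was 9.47 lower and S100a8 9.49 lower at E2 without EPO on the log2 scale. The 2 genes of that list that did not pass were Ltf and Camp. Of the mast cell and basophil list 3 of 4 genes were lower at E2 and of the macrophage and monocyte list 2 of 5, while 3 of 4 measured genes of maturing erythroblasts and 4 of 4 megakaryocyte genes were higher. No B or T cell gene passed. Between the stages 13.2% of all genes passed as higher and 15.0% as lower with EPO, and 13.4% and 13.8% without. With EPO within either stage, none of these lists had a gene that passed. The list of erythroid progenitor genes, which holds Kit and Tfrc, had 1 of 7 genes higher with EPO at E2. That was Gata2, a transcription factor of early progenitors, at 0.58 (limma, adjusted p = 0.0391, and 0.163 with the replicate block). In that comparison 3.19% of all genes passed as higher. The part of these cells in the stage differences was not tested, and in bulk samples fewer cells of a type and less RNA per cell cannot be told apart.

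**Figure D3:**
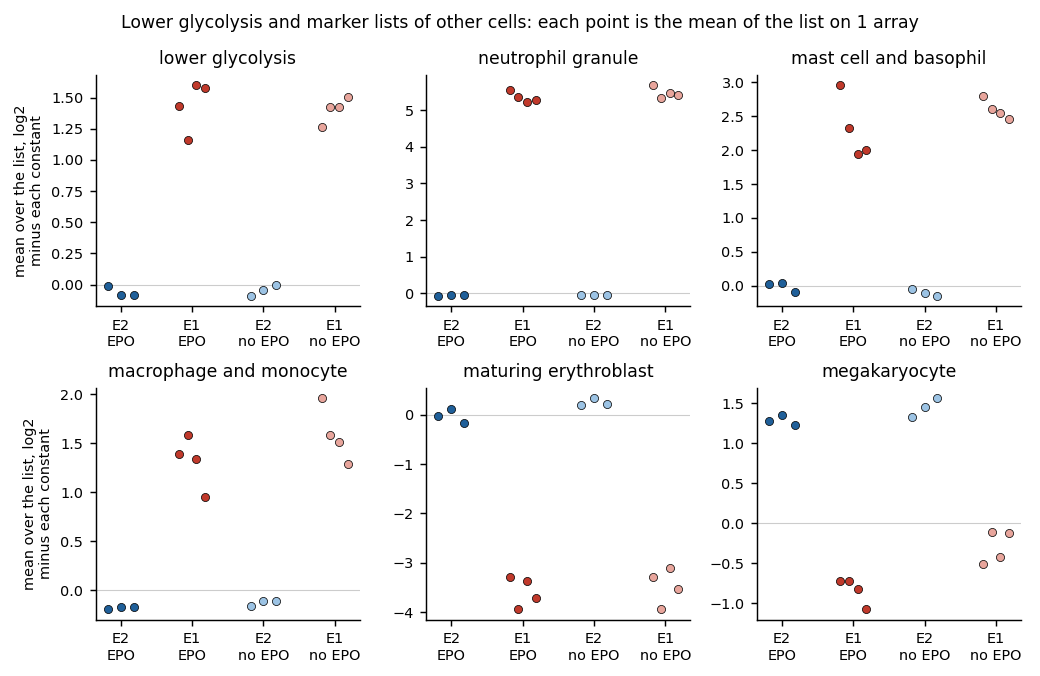
Mean log2 value over each list on each array, with each probe set's constant subtracted (y axis), for lower glycolysis (7 genes) and 5 marker lists, in the order E2 EPO, E1 EPO, E2 without EPO and E1 without EPO (x axis). Each point is 1 array. The neutrophil granule list lies between 5.23 and 5.68 on the E1 arrays and close to 0 on the E2 arrays, and the lower glycolysis list is also higher on every E1 array.

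Of 4 transporters of glucose and lactate, Slc2a1, Slc16a1 and Slc16a3 were higher at E2 in both comparisons. As higher, 13.2% of all genes passed with EPO and 13.4% without. Slc2a1 had log2 values of 0.005, 0.25 and -0.03 on the E2 EPO arrays, against -1.43, -2.32, -2.10 and -2.39 on the E1 EPO arrays, and 0.23, -0.005 and 0.27 on the unchallenged E2 arrays, against -2.42, -2.96, -2.53 and -2.97 on the unchallenged E1 arrays. That is 2.14 higher with EPO and 2.89 higher without (SE 0.22 each), or 4.40-fold and 7.39-fold (limma, adjusted p = 3.19e-05 with EPO). All 3 of its probe sets passed in both comparisons.

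Slc16a1 had 0.002, -0.007 and -0.002 on the E2 EPO arrays, against -2.35, -1.87, -1.34 and -0.84 on the E1 EPO arrays. Without EPO it had 0.21, 0.17 and 0.15 at E2 and -1.68, -1.71, -2.05 and -2.05 at E1. It was 1.60 higher with EPO and 2.05 higher without. Slc16a3, the lactate exporter of glycolytic cells, was 0.67 higher with EPO (0.47, 0.85 and 0.33 at E2, against -0.07, -0.10, -0.14 and -0.18 at E1) and 0.58 higher without (0.57, 0.58 and 0.38 at E2, against -0.02, -0.01, -0.18 and -0.10 at E1). Slc2a3, the fourth transporter, did not pass in either comparison, at 0.09 with EPO and -0.21 without.

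Of the 7 measured genes of upper glycolysis, Hk2, Pfkp and Aldoa were lower at E2 with and without EPO. As lower, 15.0% of all genes passed with EPO and 13.8% without. Hk1 alone was higher without EPO (14.3% of the 7, against 13.4% of all genes). Hk2 was 4.35 lower with EPO and 2.01 lower without (the values by array are given above), and for its E2 arrays the span of 0.02 applies. Hk1, the constitutive hexokinase on which red cells depend, had 0.34, 0.32 and -0.03 on the E2 EPO arrays, against -0.54, -0.84, -0.02 and 0.16 on the E1 EPO arrays, a difference of 0.52 that did not pass (adjusted p = 0.162). Without EPO it had 0.15, 0.52 and 0.40 at E2, against -1.08, -0.93, -0.81 and -0.29 at E1, and was 1.13 higher (adjusted p = 0.00665). A second Hk1 probe set passed in both comparisons, at 0.70 with EPO and 0.87 without. Whether the 2 stage differences of Hk1 differ is the interaction, -0.61, which did not pass (adjusted p = 0.907).

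Pfkp was 1.57 lower at E2 with EPO and 2.14 lower without on its representative probe set. Its other 2 probe sets did not pass, at 0.09 and -0.43 with EPO and 0.23 and -0.02 without. Pfkl and Pfkm, the liver-type and muscle-type subunits of the same enzyme, did not pass, at -0.94 and -0.16 with EPO and -0.73 and 0.10 without. Pfkl was among the genes in which replicates 3 and 4 of E1 (1.32 and 1.34 with EPO, 1.17 and 1.24 without) stood above replicates 1 and 2 (0.75 and 0.10 with EPO, 0.05 and 0.67 without). It passed as lower with EPO at -1.20 when E1 EPO replicate 2 was left out and at -0.94 when unchallenged E1 replicate 1 was left out, and without EPO at -0.97 when that last array was left out. Aldoc, the brain-type aldolase, did not pass, at 0.66 with EPO and 0.74 without, save with EPO when unchallenged E1 replicate 1 was left out (adjusted p = 0.0381). A second Aldoc probe set passed in the opposite direction without EPO, at -0.10 (adjusted p = 0.0292). Aldoa, the muscle-type aldolase, was 1.03 lower with EPO and 0.86 lower without, and the second call was lost without unchallenged E2 replicate 1 (adjusted p = 0.0799) or 3 (adjusted p = 0.0569). The 4 other Aldoa probe sets were lower as well, at -0.86 to -0.19 with EPO and -0.75 to -0.09 without, but none passed, and with the mean of the 5 both calls were lost.

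In lower glycolysis, 5 of 7 measured genes (Tpi1, Pgk1, Pgam1, Pkm and Ldha) were lower at E2 in both comparisons, where 15.0% of all genes passed as lower with EPO and 13.8% without. In all 7 every E2 array lay below every E1 array of the same treatment, as in 46.6% of all genes with EPO and 37.8% without. The median difference of the group was -1.40 with EPO and -1.23 without. Eno2 and Ldhb, the neuronal enolase and the heart-type lactate dehydrogenase, did not pass, with differences between -0.20 and -0.02.

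Pkm, the pyruvate kinase of most tissues other than liver and mature red cells, had the largest difference among these 7. It had log2 values of 0.09, -0.27 and -0.05 on the E2 EPO arrays, against 3.45, 3.25, 3.94 and 4.03 on the E1 EPO arrays, and -0.25, -0.02 and 0.02 on the unchallenged E2 arrays, against 3.20, 3.52, 4.01 and 4.21 on the unchallenged E1 arrays. It was 3.74 lower with EPO and 3.82 lower without (SE 0.25 each), or 13.4-fold and 14.1-fold. Pklr, the pyruvate kinase of liver and red cells, did not pass in either comparison.

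Pgam1, phosphoglycerate mutase, had -0.03, -0.17 and -0.07 on the E2 EPO arrays, against 2.16, 1.92, 2.53 and 2.41 on the E1 EPO arrays, and was 2.34 lower. Without EPO it had -0.05, 0.09 and 0.03 at E2, against 1.31, 1.95, 1.97 and 1.86 at E1, and was 1.75 lower. Pgk1, which makes the first ATP of the pathway, had -0.05, 0.05 and -0.21 at E2, against 2.08, 1.29, 1.43 and 1.28 at E1 with EPO, and 0.04, -0.24 and -0.04 at E2, against 2.03, 1.80, 1.85 and 1.89 at E1 without. It was 1.59 lower with EPO and 1.98 lower without. Ldha was 1.40 lower with EPO and 1.23 lower without, and Tpi1, triosephosphate isomerase, was 1.27 lower with EPO and 1.12 lower without. All 3 Pgk1 probe sets passed in both comparisons, and 2 of the 3 of Tpi1 did.

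**Figure D4:**
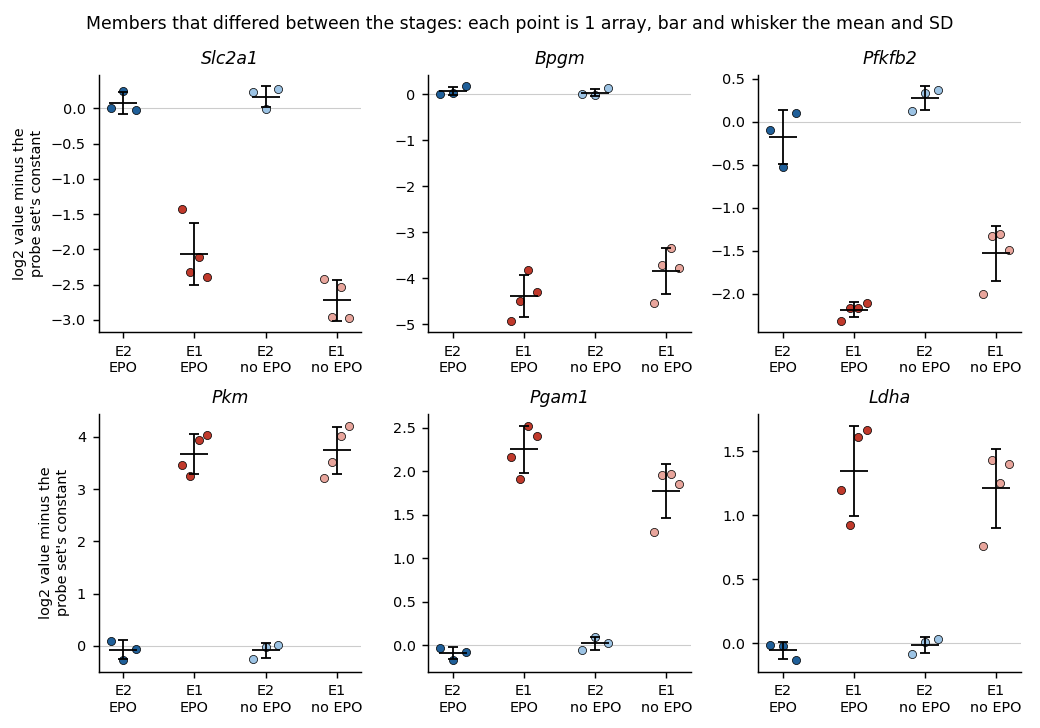
Log2 value of each array, with the probe set's constant subtracted (y axis), for the representative probe sets of 3 genes that were higher and 3 that were lower at stage E2, in the order E2 EPO, E1 EPO, E2 without EPO and E1 without EPO (x axis). Each point is 1 array, and the bar and whiskers are the mean and SD (n = 3 at E2, 4 at E1). Bpgm lies near 0 at E2 and between -4.92 and -3.34 at E1, and Pkm near 0 at E2 and between 3.20 and 4.21 at E1.

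Bpgm, the source of 2,3-bisphosphoglycerate, was the member with the largest rise. It had log2 values of 0.004, 0.03 and 0.17 on the E2 EPO arrays, against -4.92, -4.50, -3.82 and -4.31 on the E1 EPO arrays, and -0.004, -0.02 and 0.14 on the unchallenged E2 arrays, against -4.55, -3.71, -3.34 and -3.78 on the unchallenged E1 arrays. It was 4.46 higher with EPO and 3.88 higher without (SE 0.28 each), or 22.0-fold and 14.8-fold, and all 3 of its probe sets passed in both comparisons. Pgm2 was lower, with 0.04, -0.03 and -0.34 at E2, against 0.98, 1.32, 1.21 and 1.36 at E1 with EPO, and -0.04, 0.03 and -0.04 at E2, against 1.26, 1.44, 1.25 and 1.19 at E1 without. It was 1.33 lower with EPO and 1.30 lower without. Pgm1 was 0.48 lower with EPO (adjusted p = 0.0438), and that call was lost without E1 EPO replicate 2, 3 or 4, unchallenged E1 replicate 4 or any 1 of the 6 E2 arrays (highest adjusted p = 0.143, without E2 EPO replicate 2). Without EPO it passed, at -0.45, when unchallenged E1 replicate 2 was left out (adjusted p = 0.0302). A second Pgm1 probe set did not pass, at -0.09 with EPO.

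Among the regulators of flux, Pfkfb2 was higher at E2, and Pdk1 and Pfkfb3 were lower with EPO. Pfkfb2 had -0.10, -0.52 and 0.10 on the E2 EPO arrays, against -2.31, -2.16, -2.16 and -2.10 on the E1 EPO arrays, and 0.12, 0.34 and 0.38 on the unchallenged E2 arrays, against -2.003, -1.33, -1.31 and -1.49 on the unchallenged E1 arrays. It was 2.01 higher with EPO and 1.81 higher without. This rests on 1 of its 4 probe sets: the other 3 had estimates of -0.22, -0.02 and -0.04 with EPO and -0.03, 0.03 and 0.02 without, and none passed. Pdk1 was 0.93 lower with EPO, a call lost without E1 EPO replicate 2, 3 or 4 or any 1 of the 6 E2 arrays (highest adjusted p = 0.114, without E2 EPO replicate 2), and Pfkfb3 was 0.31 lower with EPO, a call lost without any of the 3 E2 EPO arrays (adjusted p = 0.056, 0.0505 and 0.0575 without replicates 1, 2 and 3). Neither passed without EPO, and the interaction of neither passed (adjusted p = 1 and 0.816). With EPO, 2 of 4 Pdk1 probe sets and 1 of 2 Pfkfb3 probe sets passed. Pfkfb4 did not pass in either comparison.

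Of the oxygen-sensing genes, Egln3 was higher and Egln1 lower at E2, while Hif1a did not pass, at 0.11 with EPO and -0.03 without. Egln3 was 3.39 higher with EPO and 2.50 higher without (values by array above). Its second probe set passed with EPO, at 2.23, but not without, at 0.19 (adjusted p = 0.612). The call without EPO was lost without unchallenged E1 replicate 1 (adjusted p = 0.0535) or without unchallenged E2 replicate 1, 2 or 3 (0.0573, 0.068 and 0.0753). Egln1 was 0.77 lower with EPO (adjusted p = 0.0372) and 0.75 lower without (adjusted p = 0.0428), and both calls were lost without E1 EPO replicate 3 or any 1 of the 6 E2 arrays, the second also without unchallenged E1 replicate 1, 3 or 4 (highest adjusted p = 0.1, without E2 EPO replicate 1, and 0.132, without unchallenged E2 replicate 2). Ndrg1, a growth arrest gene induced by hypoxia, was 0.67 lower with EPO and 0.81 lower without, and the first call was lost without E2 EPO replicate 1 (adjusted p = 0.065) or 2 (adjusted p = 0.0688). The 4 other Ndrg1 probe sets did not pass, with estimates between -0.40 and -0.003 with EPO and between -0.53 and 0.04 without. Vegfa, Ankrd37, P4ha1 and P4ha2 did not pass. P4ha1, at 0.76 with EPO and 1.31 without, passed as higher at 0.76 and 0.83 when unchallenged E1 replicate 1 was left out (adjusted p = 0.0305 and 0.0386), and without EPO at 1.52 and 1.56 when unchallenged E1 replicate 3 or 4 was (adjusted p = 0.0415 and 0.0339).

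**Figure D5:**
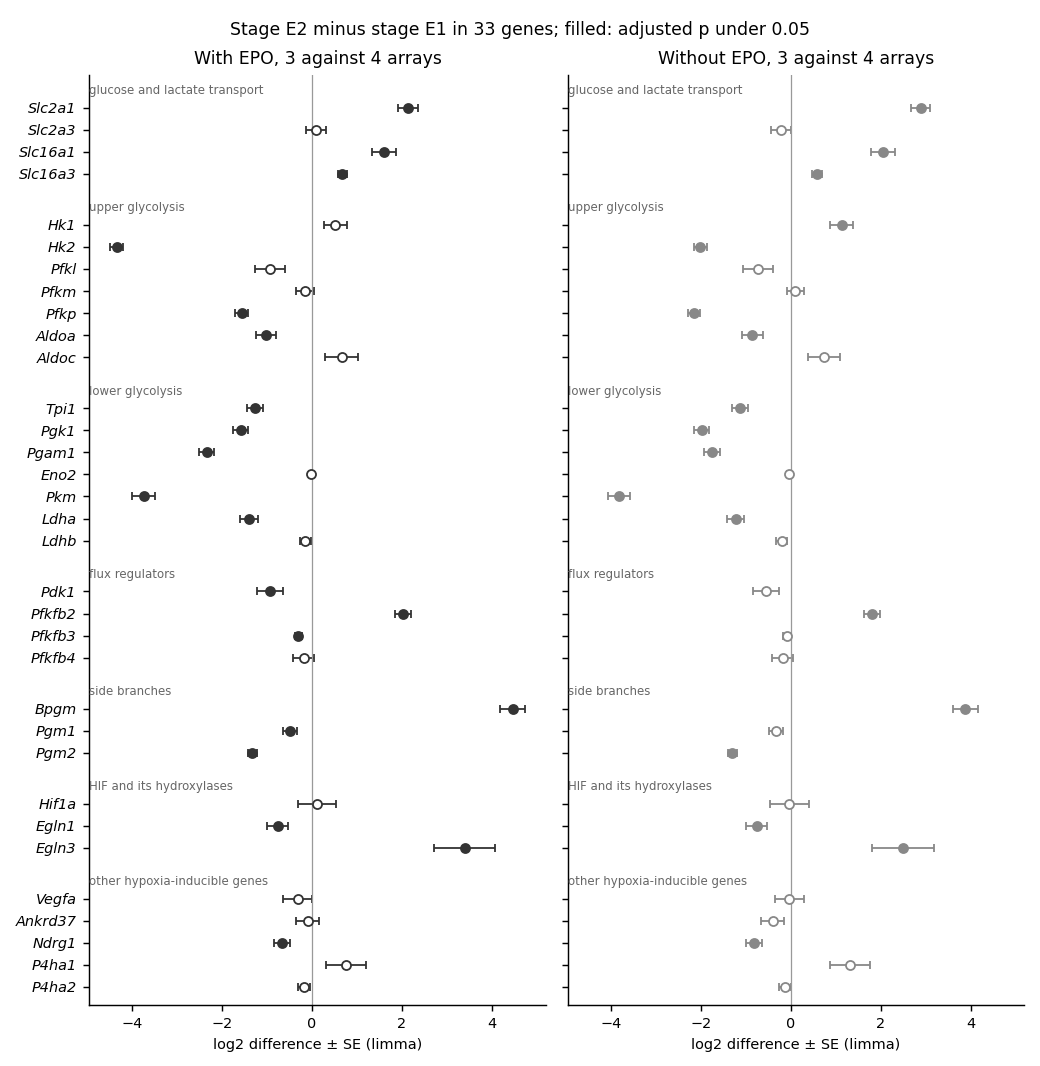
Log2 difference between stage E2 and stage E1 (x axis, limma estimate with SE) for the 33 genes, ordered by role (y axis), with EPO on the left and without EPO on the right. Filled points passed at an adjusted p under 0.05. Slc2a1, Slc16a1, Slc16a3 and Bpgm are filled and lie to the right, and 5 of 7 genes of lower glycolysis are filled and lie to the left in both panels.

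In the neighbouring lists, the citric acid cycle list had 3 genes higher and 9 lower of 20 with EPO, and 4 higher and 9 lower without, against the shares of all genes given above (13.2% higher and 15.0% lower with EPO, 13.4% and 13.8% without). Idh3a, a subunit of isocitrate dehydrogenase, was 2.17 lower with EPO and 2.36 lower without, and Suclg1, of succinyl-CoA ligase, was 1.44 lower with EPO and 1.32 lower without. Ogdh, of oxoglutarate dehydrogenase, was 1.13 higher with EPO and 1.14 higher without. In the pentose phosphate list of 7 measured genes, 2 were higher in both comparisons, Pgd (1.47 with EPO and 1.72 without) and Taldo1 (0.80 and 0.89 in the same order), and Pgls was lower with EPO (-0.58), while its -0.35 without EPO and the interaction did not pass (adjusted p = 0.075 and 1). Of other sugar transport genes Slc2a4, the insulin-regulated transporter of muscle and fat, was 3.64 higher with EPO and 3.16 higher without, and Hk3, a hexokinase of myeloid cells, was 1.11 lower with EPO and 1.78 lower without. Of the 16 further HIF targets, 5 were higher and 4 lower with EPO, and 5 were higher and 2 lower without. Among them Hmox1, heme oxygenase, was 2.33 higher with EPO and 2.05 higher without, and Mif was 1.80 lower with EPO and 1.56 lower without. The list of further HIF targets also holds Tfrc, which was among the 5 higher without EPO. Its stage difference is no finding, because CD71 set the gates.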

How the data were processed

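Expression was read on Affymetrix mouse arrays. The authors handled the scans in GCOS and summarized them by GC-RMA within GeneSpring GX 11.0. The deposited values were taken as log2, since GC-RMA returns that scale, with 1 constant per probe set subtracted: in 78.0% of probe sets the smallest values above and below 0 mirrored each other within 2e-06, and 7767 such pairs held 1 array of each stage. No filter on low levels could therefore be set, and precision is limited by the number of arrays. Only the 14 arrays of these groups were used.

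Probe sets were named from the platform annotation through Entrez IDs (34945 of 45037 named 1 gene), and 64 control probe sets were left out. limma 3.58.1 in R 4.3.3 tested EPO within each stage on that stage's arrays, and the stages and their interaction in a joint fit of 14 arrays, with Benjamini-Hochberg adjustment over all probe sets. The fits were tested on simulated data under 3 assumptions on the spread between replicates (equal in all groups, unequal between the stages, and unequal between groups). The median estimates of the known changes lay close to their true values under each. A difference of group means does so whatever the spread, so this says nothing of the calls. How often the known changes passed is not given here. With unequal spread the share of false calls ran above the nominal threshold in most fits, and furthest in the joint fit. It was above that threshold in some fits with equal spread too. The representative probe set was the one with the largest SD, which includes the change tested. Same-numbered E1 arrays deviated from their group means together (correlations of 0.195, 0.187, 0.173 and 0.152), so the numbers were taken to pair them, from the labels' numbers and these deviations alone. E1 arrays of different number gave correlations between -0.236 and 0.203. The highest, of EPO replicate 3 with unchallenged replicate 4, was above all same-numbered ones, so the pairing is uncertain. Alternatives were quantile normalization, median centring, weights for arrays, limma with a trend and robust variances, only the more variable probe sets, averaged probe sets per gene, a replicate block, a fit of all or of only the compared arrays, the methods' t-test with adjustment, and each array left out. The members, lists and rules were chosen with earlier results of these data known. The rule named by array up to 6 members per comparison and direction with the largest change among those that passed, and 10 members whatever their result (Slc2a1, Hk2, Pfkfb3, Pfkfb4, Pdk1, Ldha, Vegfa, Hif1a, Egln3 and Bpgm). Of the other lists it named up to 4 genes that passed per comparison, and single arrays or genes outside it were named after their values were seen.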

Additional observations from a re-analysis of the deposited data

Results flagged for a closer look

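The gap between 1 array and the rest of its group was tested in 66 groups of 4 E1 arrays (33 genes in EPO and unchallenged cells), of which chance flags about 1 in 20, and 9 were flagged. Among E1 EPO arrays, Aldoa was low on replicate 2 (0.406, the others between 1.06 and 1.19), as was Pfkm (-0.308, the others between 0.36 and 0.50). Ankrd37 was high on EPO replicate 2 (0.158, the others within 0.01 of 0), Ldhb on EPO replicate 3 (0.296, the others between -0.02 and 0.01) and P4ha2 on EPO replicate 1 (0.59, the others between -0.02 and -0.01). Among unchallenged E1 arrays, replicate 1 was low in Pgam1 (1.307, the others between 1.86 and 1.97) and in Vegfa (-0.571, the others between -0.03 and 0.04) and high in Eno2 (0.11, the others between -0.01 and 0.01). Ankrd37 stood at 1.336 on unchallenged replicate 3, with the others between 0.01 and 0.11. Groups of 3 arrays at E2 were not tested in this way.

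Hk2 was the member whose EPO effect differed between the stages by the test of the difference itself, at -2.34 on the log2 scale, with 4 of 4 E1 pairs higher with EPO. With the replicate block that call was lost (adjusted p = 0.0645). The 6 E2 arrays lay within 0.02 of each other, and whether they sat at the lower limit of GC-RMA cannot be read from these values.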

How the results depend on the processing

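In E1, the 2 members higher with EPO became 1 under quantile normalization, median centring, the trend and robust options and the adjusted t-test of the methods, and 0 with the replicate block. The 0 lower became 1 with array weights and 2 with each gene's probe sets averaged. In E2, the 3 higher became 1 with the replicate block, and the 1 lower became 0 with the trend and robust options, the replicate block, the fit of 14 arrays and the t-test, and 3 among the more variable probe sets only. For the stages under EPO, the 14 lower became 9 with only the compared arrays. With a replicate block added to that fit, an alternative chosen after seeing the data, the 6 higher became 2 and the 14 lower became 4. For the interaction, the 0 higher became 2 under quantile normalization (Slc2a3 and Pfkp), and the 1 lower became 0 with the replicate block. Causes were not tested.

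With 1 array left out, the counts ranged from 1 to 1 higher and 0 to 1 lower in E1, 3 to 4 higher and 0 to 3 lower in E2, 6 to 8 higher and 9 to 15 lower between the stages with EPO, 6 to 8 higher and 9 to 12 lower without EPO, and 0 to 0 higher and 1 to 1 lower in the interaction. Slc16a1 in E2 reversed to 0.06 with the mean of its probe sets, and Vegfa between the stages under EPO reversed to 0.99 under quantile normalization. The alternatives, arrays left out included, were also counted for the 68 pairs of gene and comparison that passed in at least 1 fit. Of these alternatives 1248 kept the result, 103 fell short of the threshold, 47 newly passed and 2 reversed. The 1248 include pairs that failed in the main fit and failed again, in whichever direction, so they do not measure how stable the calls were. Same-numbered E2 arrays did not deviate together (correlations of -0.061, -0.057 and -0.016) and arrays of equal number across the stages correlated between -0.126 and 0.059, so the block there rests on a shared number only. The values carry no levels and no signal over background, so detection was not weighed gene by gene, and the gate, culture day and content of other cells cannot be told apart from the stage.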
